A study of Mus musculus with 16 samples.

Results

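The genes described here encode the chains of the most abundant fibrillar collagens of the liver: Col1a1 and Col1a2, which encode the chains of type I collagen, and Col3a1, which encodes the single chain of type III collagen. The members were the rows with these gene names in the deposited tables, and all 3 were found in both tables, of 5205 genes listed in either and 752 listed in both. Liver RNA was sequenced from 16 male C57BL6 mice, 4 in each of 4 groups. TSP1F/F mice (labelled WT) carry a floxed Thbs1 gene. TSP1ΔPf4 mice (labelled KO) carry the same floxed gene and a Pf4-Cre transgene, used to delete it in megakaryocytes and so in the platelets they shed. Both genotypes share the floxed allele and littermate breeding. The study calls the deletion platelet-specific and mentions Gp1ba-Cre as a driver stricter for megakaryocytes, and whether other cells keep Thbs1 was not tested here. Each genotype was fed a low-fat (LF) diet or the AMLN diet, which is rich in fat, fructose and cholesterol and induces steatohepatitis, for 32 weeks, and the organism list of the study gives an age of 8 weeks without saying whether this was the age at the start of the diet.

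Fibrillar collagens are made as procollagen chains that are hydroxylated and folded into triple helices in the endoplasmic reticulum, secreted, trimmed of their end propeptides and laid down as fibrils that lysyl oxidases crosslink. A type I molecule combines chains from both Col1a1 and Col1a2, whereas a type III molecule holds Col3a1 chains alone, and both types occur together in the scars of fibrotic liver, where activated hepatic stellate cells and portal fibroblasts are their main known makers. In bulk liver RNA, more collagen-making cells and more collagen RNA per cell cannot be told apart.

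Col1a1 (ENSMUSG00000001506) lies on chr11:94936224-94953042, Col1a2 (ENSMUSG00000029661) on chr6:4504814-4541544 and Col3a1 (ENSMUSG00000026043) on chr1:45311538-45349706 of mm10, each on the forward strand. Their full-length transcripts in GENCODE have 51, 52 and 51 exons. Col1a2 overlaps the gene model Gm43921 and Col3a1 the microRNA gene Gm47302, both on the same strand. Col1a1 is also the gene that the study assayed by quantitative PCR, and the primer pair is shown because it marks the part of the transcript that the PCR reads, a 159-base product across exons 47 and 48 of the coding sequence. The forward primer matches chr11:94950117-94950140 and the reverse primer is complementary to chr11:94950338-94950361.
Col1a1 forward primer: ttctcctggcaaagacggactcaa
Col1a1 reverse primer: aggaagctgaagtcataaccgcca

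The sequences just upstream of Col1a2 and Col3a1 are shown because the ratio of these genes did not overlap between the AMLN-fed genotypes. That difference did not pass after adjustment, and whether these sequences bear on it was not tested. They come from the RefSeq promoter table (GRCm38.p6), in which 2 of the 3 genes were found. For Col1a2 the stretch is chr6:4505370-4505492 and for Col3a1 it is chr1:45311288-45311537, both on the forward strand and both ending at the base before the start of the full-length transcript in GENCODE. The Col1a2 stretch lies in an intron of a shorter transcript that starts upstream. Capitals mark the letters GGGCGG (the GC box bound by Sp1-type factors), CAGACA (the CAGA element bound by Smad proteins, the transcription factors of the TGF-β pathway) and TATAAA (the letters of a TATA box). They were searched on both strands, so that TGTCTG is CAGACA on the reverse strand.
Col1a2 upstream: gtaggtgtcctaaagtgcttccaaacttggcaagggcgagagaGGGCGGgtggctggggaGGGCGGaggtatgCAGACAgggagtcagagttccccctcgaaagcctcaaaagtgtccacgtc
Col3a1 upstream: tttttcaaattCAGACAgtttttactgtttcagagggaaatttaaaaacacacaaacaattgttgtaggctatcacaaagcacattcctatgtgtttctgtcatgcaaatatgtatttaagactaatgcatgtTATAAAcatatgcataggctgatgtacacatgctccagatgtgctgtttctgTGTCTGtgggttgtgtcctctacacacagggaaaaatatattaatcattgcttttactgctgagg

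The Col1a2 stretch held 2 GC boxes and 1 CAGACA, and the Col3a1 stretch held 1 TATAAA and 2 CAGACA. The TATAAA began at position -117 from the Col3a1 transcript start, and whether it acts as a TATA box was not tested. Over 32851 RefSeq windows of 300 bases, 35.7% held GGGCGG, 21.0% CAGACA and 13.6% TATAAA on either strand. CCAAT, the letters of the CCAAT box, stood in 37.4% of windows and did not match Col3a1. In the Col1a2 window it matched only downstream of the stretch shown, at chr6:4505509 and, on the reverse strand, at chr6:4505618. Both matches lie past the GENCODE start, because the window is placed by a RefSeq start farther downstream. None of these motifs overlaps another, and a match of letters is not a measured binding site.

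The deposited tables hold only genes that the authors' own diet test passed at an unadjusted p under 0.05 in that genotype, so being listed is itself a selection on the diet contrast, and the diet results below describe genes already chosen for a diet difference. Genes compared between the genotypes are those in both tables, so they were chosen for a diet difference in each genotype. The sequencing depth, recovered by relating FPKM to the counts and gene lengths, was 17127965 to 39753019 reads per library, and the members' counts ran from 1 to 4594. CPM (read counts scaled to a common library total) compare 1 gene between mice, and FPKM (which also divides by the deposited gene length) compare genes within a mouse. The mice of a group are numbered 1 to 4 as in their labels, and the labels do not say that a number links mice of different groups, so they were not treated as pairs. The comparisons share groups of mice (each group enters a diet and a genotype comparison), so they are not independent of each other. Thbs1, the targeted gene, is listed only for TSP1F/F mice, at 0.807 ± 0.700 CPM (SD, n = 4) on LF and 7.15 ± 5.45 CPM (SD, n = 4) on AMLN, so it gives no check of the genotype labels.

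Col3a1 and Col1a2 rose on the AMLN diet in TSP1F/F mice, and the mean levels of all 3 genes were higher on AMLN than on LF in both genotypes. The difference between the genotypes in the diet effect passed the test for none of the 3. In TSP1F/F mice, mean CPM was 10.7-fold higher on AMLN for Col1a1, 6.15-fold for Col1a2 and 7.29-fold for Col3a1. In TSP1ΔPf4 mice the means were 6.95-fold, 3.05-fold and 2.20-fold higher. Between the AMLN-fed genotypes only Col3a1 was called, and its mean was 3.30-fold lower in TSP1ΔPf4 than in TSP1F/F mice, while Col1a1 and Col1a2 means lay within 1.06-fold and 1.10-fold of each other.

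**Figure D1:**
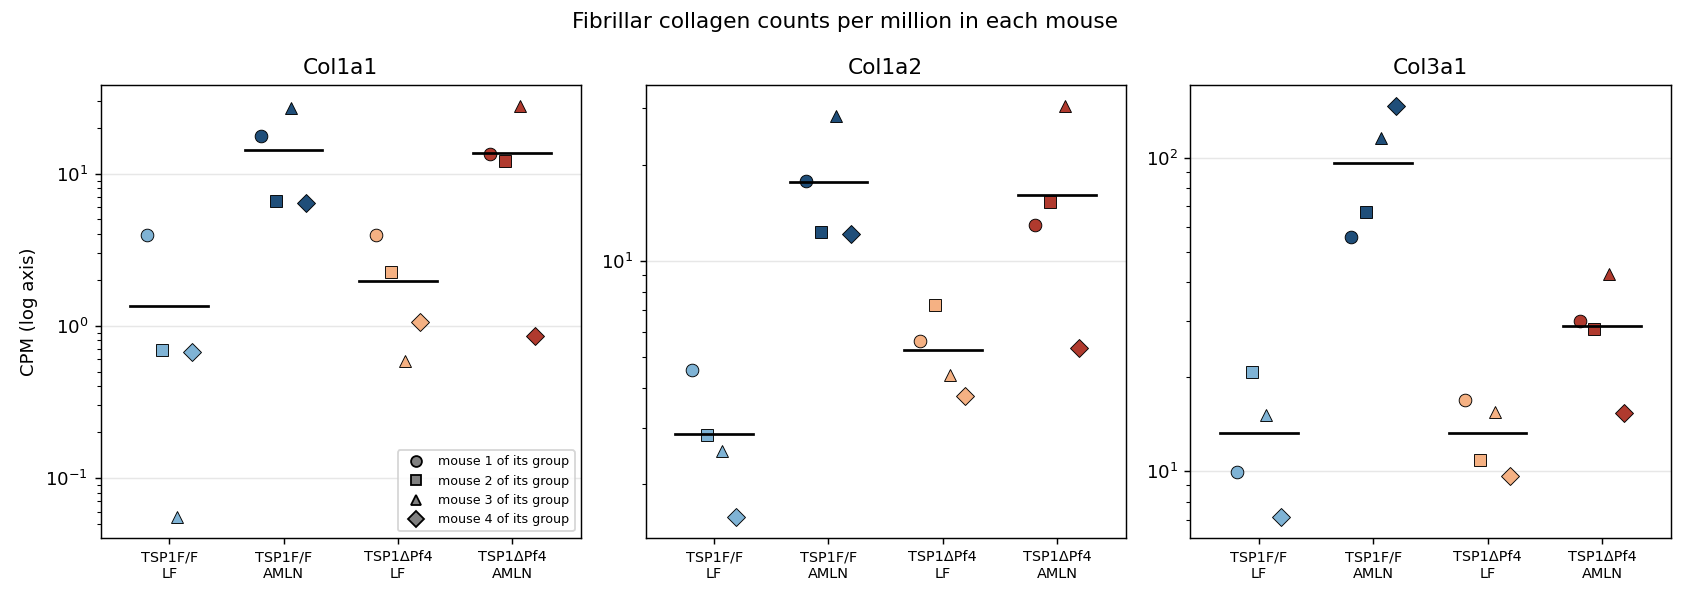
CPM of Col1a1, Col1a2 and Col3a1 (log axis) in each of the 16 mice, by genotype and diet, with 1 symbol per mouse number and a black line at the group mean. Col3a1 of the 4 AMLN-fed TSP1ΔPf4 mice lies between 15.4 and 42.6 CPM, below all 4 AMLN-fed TSP1F/F mice at 55.8 to 146 CPM, whereas the type I genes of these groups overlap.

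Col3a1 had 9.92, 20.6, 15.1 and 7.13 CPM in LF-fed TSP1F/F mice 1 to 4. On the AMLN diet it had 55.8, 66.9, 116 and 146 CPM in TSP1F/F mice 1 to 4. Mice 3 and 4 were the highest of the AMLN-fed group, and the lowest of them was well above the highest LF-fed mouse, so the diets did not overlap. The log2 fold change was 2.87 (standard error 0.42, 95% interval 1.94 to 3.79, adjusted p = 0.0214 in edgeR, whose quasi-likelihood F test is used throughout and adjusted by Benjamini and Hochberg's method, here over the 16784 genes that the authors' own adjustment covered), and Col3a1 was called (adjusted p under 0.05 and absolute log2 fold change over 0.25).

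Col1a2 had 4.54, 2.84, 2.54 and 1.58 CPM in LF-fed TSP1F/F mice 1 to 4. On AMLN its values were 17.8, 12.3, 28.4 and 12.1 CPM in the same order of mice. Mouse 3 was again high, and the diets did not overlap. Col1a2 was called in the same test with a log2 fold change of 2.62 (standard error 0.43, 95% interval 1.67 to 3.57, adjusted p = 0.0366 in edgeR).

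Col1a1 had 3.97, 0.697, 0.0551 and 0.675 CPM in LF-fed TSP1F/F mice 1 to 4, from 76, 13, 1 and 18 reads. On AMLN its values were 17.6, 6.60, 26.9 and 6.43 CPM. LF-fed mouse 1 stood far above the other LF-fed mice and LF-fed mouse 3 far below them, yet no AMLN-fed mouse fell into the LF range. The log2 fold change was the largest of the 3 genes and also the least precise, 3.42 (standard error 0.92, 95% interval 1.39 to 5.44), with an adjusted p = 0.180 in edgeR, and Col1a1 was not called. Without LF-fed mouse 1 it was 4.88 (adjusted p = 0.0594 in edgeR), and without AMLN-fed mouse 3 it was 2.92 (adjusted p = 0.478 in edgeR).

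In TSP1F/F mice 2 of the 3 genes were thus called as higher, against 2.39% of the 2096 genes tested (0.0954% were called as lower, 2.48% in either direction). All 3 had diets that did not overlap, as had 36.6% of those genes in the same direction. For each gene the two-sided exact permutation test of log2(CPM + 0.5) gave p = 0.0286, the smallest that 4 mice against 4 allow. The 3 log2 fold changes lay above the median of all genes tested, 1.15, by 1.48 to 2.27. The Col3a1 call was lost when any of AMLN-fed mice 3 or 4 or LF-fed mice 1 or 4 was left out (adjusted p = 0.0511 to 0.0889), and the Col1a2 call in 7 of 8 such fits (adjusted p up to 0.139, without AMLN-fed mouse 3).

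In TSP1ΔPf4 mice, Col3a1 had 16.8, 10.9, 15.5 and 9.66 CPM on LF. It had 30.2, 28.3, 42.6 and 15.4 CPM on AMLN in mice 1 to 4. AMLN-fed mouse 4 lay inside the LF range, and the other 3 lay above it. The log2 fold change was 1.14 (standard error 0.31, 95% interval 0.46 to 1.82, adjusted p = 0.0914 in edgeR, adjusted over 13927 genes).

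Col1a2 had 5.63, 7.29, 4.38 and 3.77 CPM in LF-fed TSP1ΔPf4 mice. It had 12.9, 15.3, 30.6 and 5.34 CPM in AMLN-fed TSP1ΔPf4 mice. Here too mouse 4 lay inside the LF range and mouse 3 was the highest. The log2 fold change was 1.61 (standard error 0.45, 95% interval 0.63 to 2.58, adjusted p = 0.0953 in edgeR).

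Col1a1 had 3.93, 2.27, 0.584 and 1.06 CPM in LF-fed TSP1ΔPf4 mice. It had 13.4, 12.2, 28.0 and 0.861 CPM in AMLN-fed TSP1ΔPf4 mice. Mouse 4 of the AMLN-fed group had 20 reads of Col1a1 and stood below 3 of the 4 LF-fed mice, while the other 3 AMLN-fed mice stood above all of them. The log2 fold change was 2.79 (standard error 0.81, 95% interval 1.02 to 4.56, adjusted p = 0.104 in edgeR).

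None of the 3 genes was called in TSP1ΔPf4 mice by edgeR, against 1.46% of the 3089 genes tested that were called as higher, 1.52% as lower and 2.98% in either direction, although all 3 had an unadjusted p under 0.05, as had 85.8% of all genes tested. All 3 were called as higher by DESeq2 (adjusted p = 0.00143 to 0.0308), as were 32.9% of the genes it tested. Each gene had 3 of 4 AMLN-fed mice above every LF-fed mouse, and 0 of the 3 had diets that did not overlap, against 20.4% of genes in this direction. Without AMLN-fed mouse 4, the log2 fold changes were 1.35 for Col3a1, 1.90 for Col1a2 and 3.18 for Col1a1, and all 3 were called (adjusted p = 0.0393 to 0.0444 in edgeR), against 2.53% of genes called as higher in that setting. The median log2 fold change of all genes tested in this genotype was -0.54, and the 3 genes lay 1.68 to 3.33 above it.

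**Figure D2:**
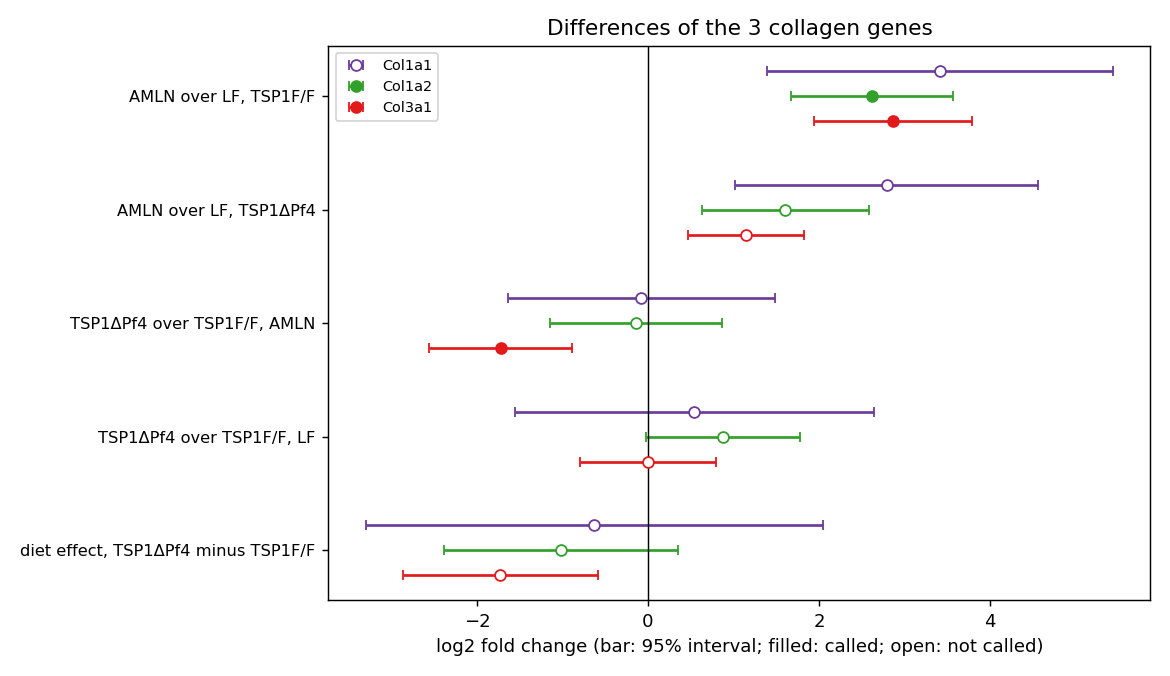
Log2 fold changes (horizontal axis) of Col1a1, Col1a2 and Col3a1 in the 5 comparisons (rows), with 95% intervals as bars. Filled points were called by edgeR: Col1a2 (2.62) and Col3a1 (2.87) for the diet in TSP1F/F mice and Col3a1 (-1.72) between the genotypes on the AMLN diet.

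Between the genotypes on the AMLN diet, only Col3a1 of the 3 genes was called as lower in TSP1ΔPf4 mice, against 8.46% of the 733 genes tested. All 4 TSP1ΔPf4 mice were below all 4 TSP1F/F mice for Col3a1, as they were for 12.4% of those genes, and 2.59% had the opposite order without overlap. The log2 fold change was -1.72 (standard error 0.39, 95% interval -2.56 to -0.89, adjusted p = 0.0182 in edgeR, adjusted over the 733 genes). The median of all genes tested was -0.38 and moved to -0.10 with TMM factors and -0.03 with DESeq2's size factors, and Col3a1 lay 1.35, 1.30 and 1.30 below it under the respective scalings. The call was lost without TSP1F/F mouse 3 (-1.62, adjusted p = 0.0512) and without TSP1ΔPf4 mouse 2 (-1.71, adjusted p = 0.0665).

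The type I genes were not distinguishable between the genotypes on the AMLN diet. Col1a1 differed by -0.08 on the log2 scale (standard error 0.72, 95% interval -1.64 to 1.48, adjusted p = 0.958 in edgeR). Col1a2 differed by -0.14 (standard error 0.46, 95% interval -1.14 to 0.86, adjusted p = 0.878 in edgeR). Both differences changed sign with TMM factors or DESeq2's size factors, and the intervals hold differences in either direction. In both genes the ranges overlapped, with TSP1ΔPf4 mouse 3 the highest and TSP1ΔPf4 mouse 4 the lowest of the 8 mice.

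On the LF diet none of the 3 genes was called between the genotypes, and neither was any other of the 640 genes tested (0.0%) by edgeR, with 44 at an unadjusted p under 0.05 and 1 called by DESeq2. The genotypes overlapped on LF for each of the 3 genes, and 3.44% of genes were higher in TSP1ΔPf4 mice without overlap. Col3a1 means were 13.2 CPM in both genotypes, a log2 difference of 0.0022 (standard error 0.36, 95% interval -0.80 to 0.80). Col1a2 was 1.83-fold higher by means in TSP1ΔPf4 mice, 5.27 ± 1.56 against 2.87 ± 1.24 CPM (SD, n = 4 each), with 2 of 4 TSP1ΔPf4 mice above all TSP1F/F mice. Its log2 fold change was 0.88 (standard error 0.41, 95% interval -0.03 to 1.78, adjusted p = 0.676 in edgeR). Col1a1 differed by 0.54 (standard error 0.95, 95% interval -1.56 to 2.65), and 3 of 4 TSP1ΔPf4 mice were above the TSP1F/F median.

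The order of the group means thus differed between the chains. For Col3a1 it ran from AMLN-fed TSP1F/F mice (96.2 ± 42.4 CPM, SD, n = 4) through AMLN-fed TSP1ΔPf4 mice (29.1 ± 11.2 CPM) to the LF-fed groups (13.2 ± 3.48 CPM in TSP1ΔPf4 and 13.2 ± 5.96 CPM in TSP1F/F mice), of which the last 3 overlapped with their neighbour in this order. For Col1a2 the AMLN-fed groups had 17.7 ± 7.63 and 16.1 ± 10.6 CPM and could not be ordered beyond their spread. Col1a1 likewise had 14.4 ± 9.84 CPM on AMLN in TSP1F/F mice and 13.6 ± 11.1 CPM on AMLN in TSP1ΔPf4 mice, above 1.96 ± 1.49 and 1.35 ± 1.77 CPM in the LF-fed TSP1ΔPf4 and TSP1F/F mice.

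The test of whether the diet effect itself differed between the genotypes called none of the 3 genes and 3 of 734 genes in all, each with a smaller diet effect in TSP1ΔPf4 mice (0.409%). For Col3a1 the diet effect was smaller in TSP1ΔPf4 mice by -1.73 on the log2 scale (standard error 0.54, 95% interval -2.86 to -0.59), with an unadjusted p = 0.00514 and an adjusted p = 0.0825 in edgeR. DESeq2 with the authors' size factors called this difference (-1.73, adjusted p = 0.0316), an alternative added after the data were seen and the only 1 of 9 settings that called it. The difference was -1.02 (95% interval -2.38 to 0.35) for Col1a2 and -0.63 (95% interval -3.30 to 2.05) for Col1a1. The median of all genes tested was -0.34, and it moved to 0.05 with TMM factors and 0.0092 with DESeq2's size factors. With TMM factors the differences were -1.40 for Col3a1, -0.61 for Col1a2 and -0.08 for Col1a1. With 1 mouse left out, the Col1a1 difference ran from -2.09 (without LF-fed TSP1F/F mouse 1) to -0.0460 (without LF-fed TSP1ΔPf4 mouse 1).

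The ratios between the genes describe how the chains moved within 1 mouse. On the FPKM scale with the deposited gene lengths, Col3a1 was the most abundant of the 3 in all 16 mice, and it stayed so when full-length transcripts of 5930, 5348 and 5564 bases replaced the deposited lengths of 6563, 12426 and 9816 bases for Col1a1, Col1a2 and Col3a1. The order of the type I chains rested on that choice: Col1a1 was above Col1a2 in 9 of 16 mice with deposited lengths and in 0 of 16 with full-length transcripts. Differences between mice in a ratio do not depend on the length used.

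The Col1a2/Col3a1 FPKM ratio was 0.251, 0.146, 0.194 and 0.0655 in AMLN-fed TSP1F/F mice 1 to 4. It was 0.339, 0.427, 0.568 and 0.274 in the AMLN-fed TSP1ΔPf4 mice. Every AMLN-fed TSP1ΔPf4 mouse was above every AMLN-fed TSP1F/F mouse, by 2.64-fold in the geometric mean (1.40 on the log2 scale, standard error 0.48). The two-sided exact permutation test gave p = 0.0286, the smallest that 4 mice against 4 allow, and 0.343 after adjustment over the 12 ratio tests. On the LF diet the ratio was 0.362, 0.109, 0.133 and 0.175 in TSP1F/F mice and 0.264, 0.530, 0.224 and 0.308 in TSP1ΔPf4 mice. These LF-fed groups overlapped through TSP1F/F mouse 1 (1.80-fold, exact permutation p = 0.143, adjusted 0.571).

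Within a genotype the diets were not distinguishable by the Col1a2/Col3a1 ratio. It was 1.24-fold higher on AMLN in TSP1ΔPf4 mice (exact permutation p = 0.400, n = 4 each) and 1.18-fold lower in TSP1F/F mice (exact permutation p = 0.714, n = 4 each), both adjusted p-values being 0.600 or more. The direction in TSP1F/F mice reversed without LF-fed mouse 1 or AMLN-fed mouse 4.

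The Col1a1/Col1a2 FPKM ratio compares the chains that join in 1 type I molecule. In the LF-fed TSP1F/F mice it was 1.65, 0.464, 0.0412 and 0.811. The value of mouse 3 rests on 1 read of Col1a1 against 46 of Col1a2, and its 95% exact binomial interval, which covers counting error only, runs from 0.00102 to 0.241. Among AMLN-fed TSP1F/F mice the ratio was 1.88, 1.01, 1.79 and 1.00, so that mice 1 and 3 had nearly equal ratios and mice 2 and 4 had nearly equal lower ones.
In LF-fed TSP1ΔPf4 mice it was 1.32, 0.589, 0.252 and 0.533. In AMLN-fed TSP1ΔPf4 mice it was 1.97, 1.51, 1.73 and 0.305. Mouse 4 of this last group, the mouse lowest in all 3 genes, also had the lowest Col1a1/Col1a2 ratio, with a 95% exact binomial interval of the ratio of 0.180 to 0.492 that lies below the other 3 mice. The geometric mean was 3.40-fold higher on AMLN in TSP1F/F mice (exact permutation p = 0.114, n = 4 each) and 1.97-fold higher in TSP1ΔPf4 mice (exact permutation p = 0.286, n = 4 each), and both had an adjusted p = 0.571. On the log2 scale the TSP1F/F difference of 1.76 became 0.67 without LF-fed mouse 3 and 2.45 without LF-fed mouse 1.

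**Figure D3:**
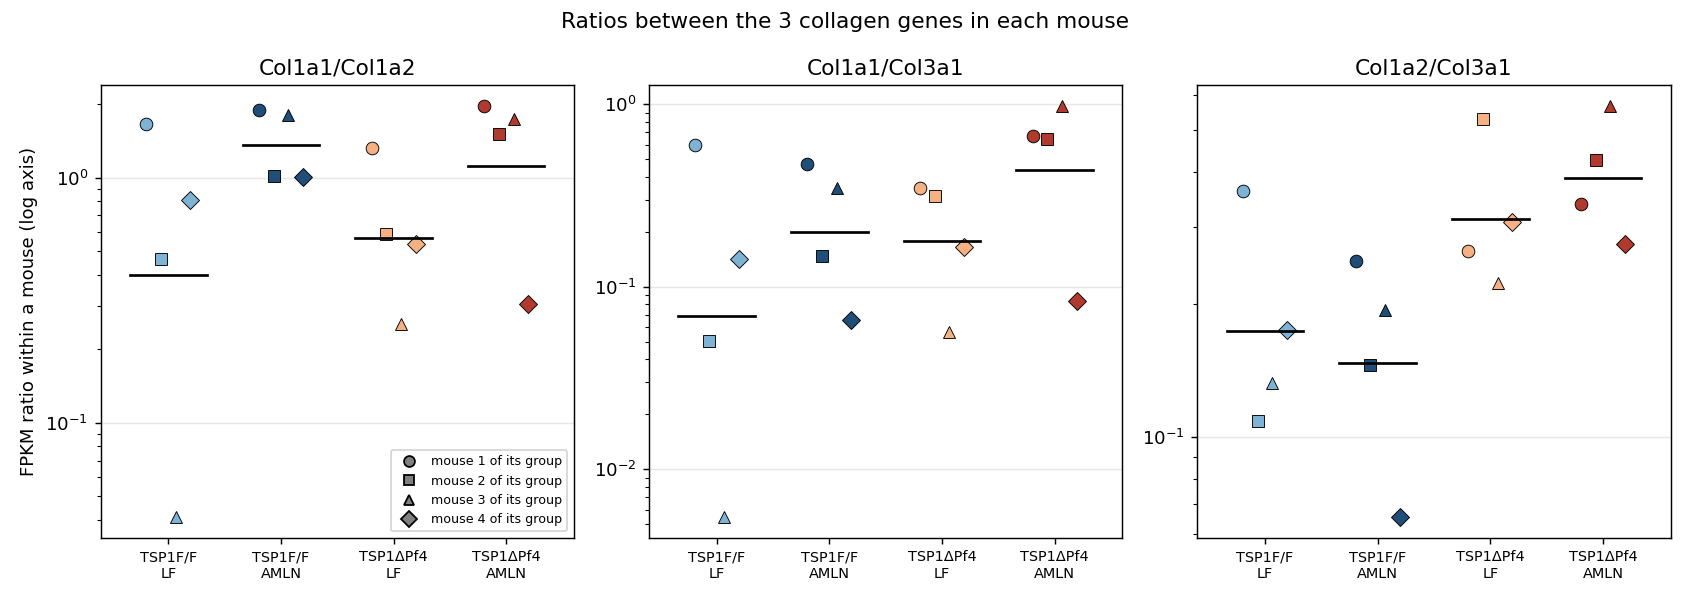
FPKM ratios between Col1a1, Col1a2 and Col3a1 within each of the 16 mice (log axes), by genotype and diet, with 1 symbol per mouse number and a line at the geometric mean. The Col1a2/Col3a1 ratio of the AMLN-fed TSP1ΔPf4 mice (0.274 to 0.568) lies above that of the AMLN-fed TSP1F/F mice (0.0655 to 0.251), and the Col1a1/Col1a2 ratio spreads most among LF-fed TSP1F/F mice.

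Col1a1/Col3a1 ratios gave no separation between groups. They ran from 0.00546 to 0.598 in LF-fed TSP1F/F mice, from 0.0656 to 0.472 in AMLN-fed TSP1F/F mice, from 0.0564 to 0.349 in LF-fed TSP1ΔPf4 mice and from 0.0838 to 0.983 in AMLN-fed TSP1ΔPf4 mice. The geometric means of the AMLN-fed genotypes differed by 2.17-fold (exact permutation p = 0.257, adjusted 0.571, n = 4 each). None of the 12 ratio tests passed after adjustment.

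The library of lowest GC index was also the library of lowest Col1a1/Col1a2 ratio in 4 of 4 groups, although in AMLN-fed TSP1F/F mice the ratios of mouse 4 (1.00, 95% exact binomial interval 0.795 to 1.26) and mouse 2 (1.01, 0.823 to 1.24) did not differ beyond counting error. The GC index is the median log2 deviation from the group mean of genes with transcripts over 55% GC, minus that of genes under 45% GC, and the members' own transcripts are 58.9% (Col1a1), 55.7% (Col1a2) and 52.5% GC (Col3a1). It was -0.56 in LF-fed TSP1F/F mouse 3, -0.45 in AMLN-fed TSP1F/F mouse 4, -0.36 in LF-fed TSP1ΔPf4 mouse 3 and -0.22 in AMLN-fed TSP1ΔPf4 mouse 4. With the genotypes of a diet on 1 scale (genes in both tables), the index of AMLN-fed mice 1 to 4 was 0.31, -0.35, 0.25 and -0.73 in TSP1F/F. In TSP1ΔPf4 it was 0.38, 0.11, 0.37 and -0.17. For LF-fed mice 1 to 4 it was -0.12, -0.26, -0.96 and 0.24 in TSP1F/F and 0.48, 0.46, -0.19 and 0.37 in TSP1ΔPf4. The part of base composition in the ratios, Col1a2/Col3a1 between the genotypes included, was not tested.
The same AMLN-fed TSP1F/F mouse 4 had the highest Col3a1 level of all 16 mice, 146 CPM, and the lowest Col1a2/Col3a1 ratio among them. Without the library of lowest GC index in each group, a setting added after the data were seen, Col3a1 between the AMLN-fed genotypes was -1.24 and not called (adjusted p = 0.0860). The diet calls in TSP1F/F mice were then also lost in edgeR with 3 mice a group, at log2 fold changes of 2.66 for Col3a1 (adjusted p = 0.0543) and 2.71 for Col1a2 (adjusted p = 0.0666), beside 2.87 and 2.62 with all mice. All 3 genes were called in TSP1ΔPf4 mice (adjusted p = 0.0134 to 0.0225 in edgeR), and 12.3% of genes were called as higher there in this setting.

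**Figure D4:**
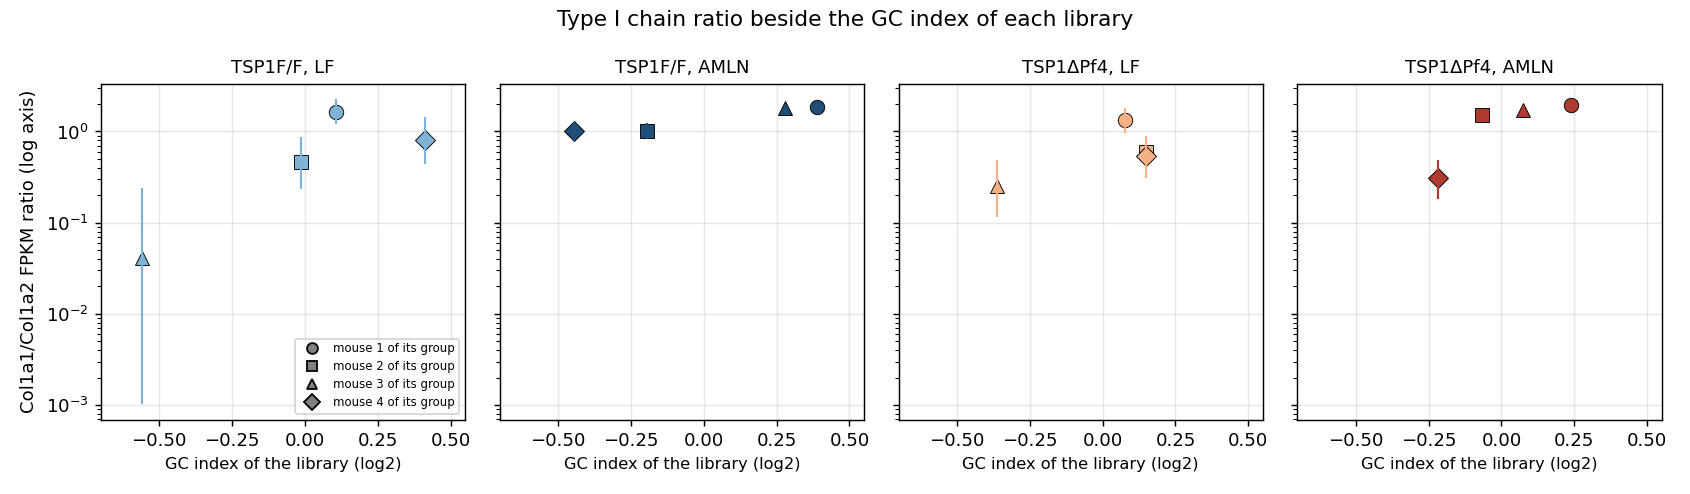
Col1a1/Col1a2 FPKM ratio (log axis) against the GC index of the library (log2), 1 panel per group and 1 symbol per mouse, with 95% exact binomial intervals as vertical lines. In each of the 4 groups the mouse with the lowest GC index also has the lowest ratio (within counting error of mouse 2 in AMLN-fed TSP1F/F mice), from 0.0412 in LF-fed TSP1F/F mouse 3 to 1.00 in AMLN-fed TSP1F/F mouse 4.

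Within a group, the order of the mice by each gene was compared pair by pair. Of the 24 pairs of mice from the same group, Col1a1 and Col1a2 put 20 in the same order by FPKM, whereas Col1a1 and Col3a1, and also Col1a2 and Col3a1, put 15 in the same order. By the counts scaled with the authors' size factors, these numbers were 18, 14 and 16 of 24. On AMLN in TSP1F/F mice the type I chains shared the order in 6 of 6 pairs (5 of 6 by scaled counts) and each shared it with Col3a1 in 2 of 6 (2 for Col1a1 and 3 for Col1a2 by scaled counts), and on AMLN in TSP1ΔPf4 mice Col1a1 and Col3a1 shared it in 6 of 6 pairs. Mice 3, 1, 2 and 4, in that order, ran from high to low in FPKM for Col1a1 and Col1a2 in the AMLN-fed TSP1F/F group, and mouse 4 was the highest there for Col3a1. These counts are a description, since the genes of 1 mouse share a library.

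The genes whose variation between mice of the same diet was most like that of the members were named by Pearson's r with the mean of the 3 members, on log2(CPM + 0.5) with each diet mean removed. Over the 8 TSP1F/F mice and 1987 genes, these were Zeb2 (0.959), Cyp2s1, Gm4202, Myo1f, Myc, Syt12, Anxa9 and Ehd2 (0.907). Zeb2 encodes a zinc finger repressor of epithelial genes. Col3a1 itself had r = 0.284 there, and 612 other genes had a higher r, against 0.944 for Col1a2 and 0.850 for Col1a1. Over the 8 TSP1ΔPf4 mice and 2978 genes the 8 were Ccdc120 (0.980), Col6a1, Rcor1, Cs, Bcl9, Dgkz, Aqp8 and Irgq (0.943), where Col6a1 encodes a chain of the beaded-filament collagen type VI and Cs is citrate synthase. Col3a1 had r = 0.879 in this genotype. Over the 16 mice and 673 genes in both tables the nearest were H2-Q1 (0.852), Dgkz, Ccdc120, Anxa5, Tubb2a, S100a11, Scd2 and Myo9b (0.729). All genes of a mouse share its library depth and base composition, and these correlations are a description.

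Other genes of the collagen pathway were followed in lists chosen with earlier results of these data known. Of 8 minor fibrillar collagens, which set fibril diameter and form cartilage fibrils, only Col5a1 and Col5a2 were listed, both in the TSP1F/F table alone. Col5a1, a chain of the type V collagen that nucleates type I fibrils, had 1.15, 0.590, 0.386 and 1.91 CPM on LF and 6.90, 4.63, 9.74 and 3.10 CPM on AMLN. Col5a2 had 0 to 0.525 CPM on LF and 2.42 to 7.52 CPM on AMLN. Neither gene was called (log2 fold changes 2.58 and 4.21, adjusted p = 0.116 and 0.0773 in edgeR), though the diets did not overlap in either, as in 36.6% of genes tested in this direction.

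Of the 33 other collagens, 5 were tested in TSP1F/F and 7 in TSP1ΔPf4 mice. All 5 and all 7 had positive log2 fold changes on AMLN, with medians of 1.70 and 0.97 beside 1.15 and -0.54 for all genes tested in TSP1F/F and TSP1ΔPf4 mice, and none was called by edgeR. The smallest adjusted p was 0.109 (Col14a1, a fibril-associated collagen) in TSP1F/F and 0.101 (Col4a1, a basement membrane collagen) in TSP1ΔPf4 mice. Between the AMLN-fed genotypes, Col6a1, Col6a2, Col14a1 and Col4a1 differed by -0.49, -0.46, -0.07 and 0.15 on the log2 scale, none of them called.

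Of 22 genes of collagen synthesis and folding, 4 were tested in each genotype, with 3 and 4 positive log2 fold changes and no call. The medians were 1.06 in TSP1F/F and 0.64 in TSP1ΔPf4 mice, beside 1.15 and -0.54 for all genes tested. Ppib was the gene with a negative log2 fold change, -0.82 in TSP1F/F mice. Serpinh1, the collagen chaperone of the endoplasmic reticulum, had log2 fold changes of 1.03 and 0.58, and Creb3l1, a transcription factor that switches on collagen assembly genes, had 2.17 and 1.51. Of 16 genes of propeptide cleavage and crosslinking, 5 were tested in TSP1F/F mice (median 1.48) and 1, the transglutaminase Tgm2 (1.16, adjusted p = 0.0603), in TSP1ΔPf4 mice, with no call. The lysyl oxidase gene Lox, the other listed gene of this list in TSP1ΔPf4 mice, had 0 reads in all 4 LF-fed TSP1ΔPf4 mice and was left out by the filter on low counts.

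Of 22 genes whose proteins sit on or beside fibrils, 13 were tested in TSP1F/F and 5 in TSP1ΔPf4 mice, with 13 and 4 positive log2 fold changes, medians of 1.58 and 0.83 and no call for the diet (Thbs1 is in this list). Between the AMLN-fed genotypes, 1 of 4 was called as lower in TSP1ΔPf4 mice, against 8.46% of the 733 genes tested. This was Fmod, which encodes the small proteoglycan fibromodulin that binds type I collagen. Fmod had 6.96, 1.03, 50.2 and 9.91 CPM in TSP1F/F mice on AMLN and 2.14, 0.535, 1.37 and 0.818 CPM in AMLN-fed TSP1ΔPf4 mice. The groups overlapped through TSP1F/F mouse 2 and TSP1F/F mouse 3 was far above the rest (log2 fold change -3.80, standard error 0.91, adjusted p = 0.0219 in edgeR).

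Genes of collagen breakdown and its inhibitors held 1 call for the diet in each genotype, a different gene each time. Of 18, 9 were tested in TSP1F/F mice, all with positive log2 fold changes (median 2.54, the same with Timp1 at its lower bound). Of these, 1 was called as higher, against 2.39% of the 2096 genes tested. Timp1, the inhibitor of matrix metalloproteinases, had 0 reads in all 4 LF-fed TSP1F/F mice and 2.69, 2.47, 5.11 and 4.36 CPM in the AMLN-fed ones, at least 101-fold higher against a floor of 3 reads over the LF-fed group (adjusted p = 0.0206 in edgeR). In TSP1ΔPf4 mice 3 were tested and Mmp12, a macrophage elastase, was called, with 0.531, 0.435, 0.993 and 0.424 CPM on LF and 5.14, 6.74, 6.19 and 7.97 CPM on AMLN (log2 fold change 3.45, adjusted p = 0.00706 in edgeR). Timp3 (0.57) and the collagenase Mmp13 (1.73) were not called. Of the 3089 genes tested in TSP1ΔPf4 mice, 1.46% were called as higher.

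Both breakdown genes tested between the AMLN-fed genotypes were called as lower in TSP1ΔPf4 mice, as were Col3a1 and 8.46% of the 733 genes tested. Mmp12 had 32.5, 45.8, 85.0 and 177 CPM in AMLN-fed TSP1F/F mice, above every AMLN-fed TSP1ΔPf4 mouse (log2 fold change -3.71, standard error 0.50, adjusted p = 0.00268 in edgeR). Mmp13, which cleaves the helices of types I and III, had 2.96, 2.16, 6.74 and 3.98 CPM in TSP1F/F and 0.567, 0.699, 0.733 and 1.21 CPM in TSP1ΔPf4 mice on AMLN (log2 fold change -2.31, standard error 0.51, adjusted p = 0.0182 in edgeR). For both genes the AMLN-fed genotypes did not overlap, as for 12.4% of genes tested in this direction.

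Of 11 collagen receptors, Ddr1, Lair1 and Mrc2 were listed in TSP1F/F mice (log2 fold changes 4.08, 2.14 and 2.54, none called) and Lair1 alone in TSP1ΔPf4 mice (1.93, adjusted p = 0.0614). Lair1, an inhibitory collagen receptor of leukocytes, had 6.90, 7.86, 12.2 and 18.6 CPM in TSP1F/F mice on AMLN and 3.67, 3.66, 4.91 and 5.99 CPM in AMLN-fed TSP1ΔPf4 mice. It was called as lower in TSP1ΔPf4 mice, as were 8.46% of the 733 genes tested (log2 fold change -1.32, standard error 0.38, adjusted p = 0.0480 in edgeR). The genotypes did not overlap, as for 12.4% of those genes in this direction.

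Genes of TGF-β and other fibrogenic signals, a list that also holds inhibitors of these signals, gave no call. Of 34, 9 were tested in TSP1F/F mice, all positive, with a median of 1.34, and 6 in TSP1ΔPf4 mice, 4 of them positive, with a median of 0.74. The 2 negative ones, Bambi (-0.90) and Smad7 (-0.66), encode inhibitors of TGF-β signalling. Tgfbr2 and Pdgfrb, the receptors tested in both genotypes, differed between the AMLN-fed genotypes by -0.04 (standard error 0.36) and -0.07 (standard error 0.40). Beside Col1a1, the study's PCR primers cover 3 fibrosis genes that were listed only in TSP1F/F mice: Timp1, Acta2 (smooth muscle actin, log2 fold change 2.11, adjusted p = 0.546) and Tgfb1 (1.23, adjusted p = 0.240).

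**Figure D5:**
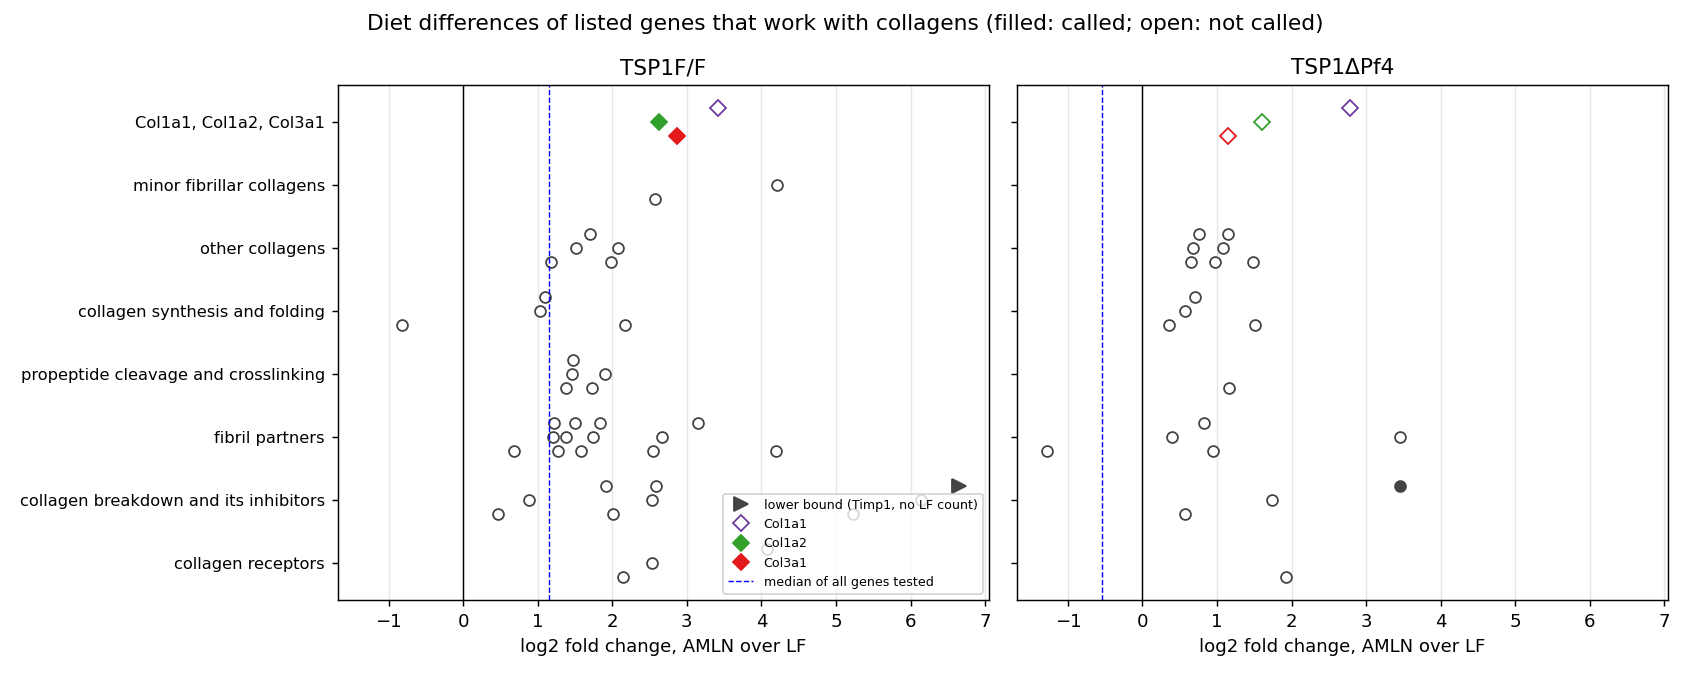
Log2 fold changes of AMLN over LF (horizontal axis) for the 3 collagen genes (diamonds) and the tested genes of 7 collagen-related lists (circles), 1 panel per genotype. Filled symbols were called, the arrow marks Timp1 at its lower bound of 6.65, and the dashed line is the median of all genes tested, 1.15 in TSP1F/F and -0.54 in TSP1ΔPf4 mice.

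Markers of the cell types that make or accompany collagen were read beside these results, for the genes in both tables and as summed FPKM. Of 16 markers of stellate cells and myofibroblasts, 3 were in both tables (Pdgfrb, Lox and Nes). Their sum was 0.0705 to 1.24 and 1.04 to 2.74 in LF-fed and AMLN-fed TSP1F/F mice, and 0.917 to 1.78 and 1.17 to 2.39 in LF-fed and AMLN-fed TSP1ΔPf4 mice. None of the 3 was called between the AMLN-fed genotypes (Lox -1.51, Nes -1.21 and Pdgfrb -0.07 on the log2 scale). For the diet, Nes and Pdgfrb were at 2.35 and 1.34 in TSP1F/F mice. In TSP1ΔPf4 mice they went opposite ways, at -1.22 and 0.77, and neither was called in either genotype. The stellate cell markers Vim, Acta2 and Cygb were listed in 1 genotype only. Vim was called as higher for the diet in TSP1F/F mice (2.37, adjusted p = 0.0214 in edgeR), as were 2.39% of the genes tested.

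Several markers of other cell types were also lower in AMLN-fed TSP1ΔPf4 mice. Of the 733 genes tested between the AMLN-fed genotypes, 8.46% were called as lower and 0.546% as higher, and the median was -0.38. All 4 mesothelial markers in both tables, of 7, were called as lower in these mice (Upk1b -4.40, Upk3b -3.40, Msln -3.33 and Gpm6a -3.13 on the log2 scale), with a summed FPKM of 1.41 to 3.98 against 6.29 to 49.8 in AMLN-fed TSP1F/F mice. Both portal fibroblast markers, of 12, were called as lower, Cd34 (-1.76) and Msln, which stands in both lists, with sums of 0.612 to 2.06 against 3.16 to 21.3. For the diet, Msln, Upk3b, Gpm6a and Cd34 had log2 fold changes of 3.23, 2.45, 2.25 and 1.36 in TSP1F/F mice. In TSP1ΔPf4 mice they had -1.31, -1.36, -0.89 and -1.06, and none was called in either genotype. These genes were thus listed through opposite diet differences, a selection that bears on their genotype difference. Of 12 markers of monocyte-derived macrophages, 8 were in both tables and 5 were called as lower (Mmp12, Clec7a -3.42, Trem2 -3.06, Lyz2 -2.51 and Gpnmb -2.41), with sums of 69.4 to 141 against 227 to 1373. Of 9 Kupffer cell markers, 5 were in both tables and 1, Cd5l (-1.31), was called as lower, with sums of 75.6 to 96.1 against 121 to 315. The other Kupffer cell markers did not share a direction, with Adgre1 at -0.86, Vsig4 at -0.41, Csf1r at 0.18 and Cd163 at 1.62, none of them called. The part of these cells in the Col3a1 difference was not tested.

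The hepatocyte markers Ttr and Serpina1a, of 10, summed to 3161 to 4217 FPKM in AMLN-fed TSP1ΔPf4 and 2019 to 4455 FPKM in AMLN-fed TSP1F/F mice. They summed to 5088 to 6155 and 4547 to 6324 FPKM in the LF-fed mice of these genotypes, so that the hepatocyte markers were present in every liver. The endothelial markers Stab2 and Lyve1, of 10, summed to 4.65 to 8.06 FPKM in AMLN-fed TSP1ΔPf4 and 4.70 to 6.27 FPKM in AMLN-fed TSP1F/F mice. On LF their sums were lower, 2.44 to 3.99 FPKM in TSP1ΔPf4 and 1.11 to 3.17 FPKM in TSP1F/F mice, without overlap with AMLN, and neither gene was called for the diet. Of all genes tested, 20.4% in TSP1ΔPf4 and 36.6% in TSP1F/F mice were higher on AMLN without overlap. Endothelial markers tested in 1 genotype only did not share a direction. Erg (-0.63) and Kdr (-0.46) were negative in TSP1ΔPf4 mice and Cdh5 (0.98) was positive in TSP1F/F mice, none of them called. No marker of cholangiocytes or of platelets and megakaryocytes, of 10 each, was in both tables, and smooth muscle, of 7, had Smtn alone. For the diet in TSP1F/F mice, 3 of 9 macrophage markers tested (Gpnmb, Trem2 and Itgax) and 1 of 7 Kupffer cell markers (Csf1r) were called as higher. The share over all genes tested there was 2.39%. In TSP1ΔPf4 mice, 2 of 8 macrophage markers (Gpnmb and Mmp12) and 2 of 5 Kupffer cell markers (Csf1r and Vsig4) were called as higher, against 1.46% of genes. Of 3 cholangiocyte-list genes tested in TSP1ΔPf4 mice, Tff3 was called as lower, against 1.52% of genes. Other Kupffer cell markers had negative log2 fold changes that were not called, Cd163 at -3.71 and Marco at -2.75 in TSP1F/F mice and Cd163 at -1.79 in TSP1ΔPf4 mice. The other cholangiocyte markers tested went the other way from Tff3 and were not called. Epcam was at 0.97 and Sox9 at 1.01 in TSP1ΔPf4 mice, and Spp1 at 1.41, Krt19 at 2.30 and Krt7 at 2.77 in TSP1F/F mice. The part of these cells in the diet differences of the collagens was not tested.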

How the data were processed

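The counts per gene were deposited by the authors in 2 tables, one per genotype, beside signal values (each count divided by 1 size factor per library by the authors) and FPKM (deposited, counts per deposited gene length and library total). The methods name STAR 2.7.8a and mm10 for 150-base paired reads, whereas the submitters' processing notes name HISAT2 and DESeq2, and the counting program and strand setting are not given in the sources used here. The authors' log2 fold changes and p-values hold their own diet comparison. The deposited p-values served only to find how many genes their adjustment covered and how listed genes were selected, and the log2 columns were not used.

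Members, lists and tests were chosen with earlier results of these data known. Library totals were recovered from counts, lengths and FPKM. edgeR 4.0.16 in R 4.3.3 (filterByExpr, quasi-likelihood F test with Benjamini-Hochberg adjustment, prior count 0.125) was run within each genotype for the diet and over the 752 shared genes for the genotypes, and the code was tested on simulated data. Genes outside the tables were taken as not called in the diet adjustment, and the dispersion trend rests on selected genes. Ratios were compared by two-sided exact permutation tests (scipy 1.17.1). A GC value was found for 99.6% and 99.4% of listed genes in GENCODE vM21. Named genes were the members, Thbs1, list genes that were called (at most 5 a list) or in lists with 3 or fewer listed, and the 8 most alike. Col14a1, Col4a1, Col6a2, Serpinh1, Creb3l1, Ppib, Bambi and Smad7 were named in addition after their values were seen, as was Col6a1 in its list. All value columns were matched to a mouse. Alternatives were DESeq2 1.42.0, limma 3.58.1 on log2(FPKM + 1), other scalings, filters and adjustments, a replicate block, 1 fit of 16 mice and each mouse left out.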

Additional observations from a re-analysis of the deposited data

Results flagged for a closer look

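Of the 24 groups of 4 values examined (3 genes and 3 ratios in 4 groups), 1 held a value set apart from the rest by Dixon's test: Col1a1 in LF-fed TSP1F/F mice, where mouse 1 had 3.97 CPM and the other mice had at most 0.697 CPM. About 1 group in 20 is set apart by chance.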

How the results depend on the processing

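Groups of 4 mice, tables that hold only genes selected on the diet contrast, and as few as 1 read of Col1a1 limit these comparisons, and the cause of each change below was not tested. Values are log2 differences unless called counts. With DESeq2 (its own size factors, then the authors' size factors) the diet effect was 2.95 and 3.41 for Col1a1 in TSP1F/F mice, and in TSP1ΔPf4 mice 1.97 and 1.61 for Col1a2, 1.51 and 1.15 for Col3a1 and 3.10 and 2.79 for Col1a1, all called. Adjusted over the genes tested alone, Col1a1 in TSP1F/F mice (3.42) and Col1a2 (1.61), Col3a1 (1.14) and Col1a1 (2.79) in TSP1ΔPf4 mice were called. Without the library of lowest GC index in each group, Col3a1 (2.66) and Col1a2 (2.71) in TSP1F/F mice and Col3a1 between the AMLN-fed genotypes (-1.24) were not called, whereas Col1a2 (1.82), Col3a1 (1.44) and Col1a1 (2.88) in TSP1ΔPf4 mice were. Between the AMLN-fed genotypes Col1a1 reversed with DESeq2 (0.30), TMM (0.20) and this GC setting (0.068), and Col1a2 likewise (0.23, 0.14 and 0.0075). Col3a1 on LF reversed with the authors' size factors in edgeR (-0.0432) and DESeq2 (-0.0431) and in the GC setting (-0.0102). Col3a1's difference in diet effect was called with DESeq2 and the authors' size factors (-1.73). In the GC setting the ratios reversed for Col1a2/Col3a1 by diet in TSP1F/F mice (0.0173) and Col1a1/Col1a2 between genotypes on AMLN (0.20) and LF (-0.20). The authors' size factors and the GC setting were chosen after seeing the data.

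The replicate numbers were not taken as pairs. Over 673 genes, deviations of same-numbered mice correlated at -0.38 to 0.36 between diets in TSP1F/F mice, -0.32 to 0.076 between diets in TSP1ΔPf4 mice and -0.048 to 0.47 between LF-fed genotypes. Between AMLN-fed genotypes they correlated at 0.31, 0.093, 0.35 and 0.44, all positive, with the same number as best match for 3 of 4 mice, a hint of a link that 1 pair under 0.1 and the labels leave undecided. With a replicate block, Col3a1 (2.85) and Col1a2 (2.62) in TSP1F/F mice were not called, Col3a1 between the AMLN-fed genotypes stayed called (-1.67), and genes called were 10 and 4 for the diet in TSP1F/F and TSP1ΔPf4 mice, 116 between AMLN-fed genotypes and 0 for the difference in diet effect.

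Genes called for the diet in TSP1F/F mice, 52, became 763 and 588 with DESeq2 and the 2 sets of size factors, 83 without a filter, 114 with limma, 1124 adjusted over genes tested and 31 in the GC setting. In TSP1ΔPf4 mice, 92 became 1388 and 1082 with DESeq2, 198 with TMM, 194 with limma, 2187 adjusted over genes tested and 1040 in the GC setting. Between AMLN-fed genotypes, 66 became 39 with limma, 110 with DESeq2 and the authors' size factors and 30 in the GC setting. On LF, DESeq2 called 1 and 2. For the difference in diet effect, 3 became 40 and 58 with DESeq2, 15 with TMM, 13 with limma, 8 with the authors' size factors in edgeR and 0 in the GC setting.

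Leaving out 1 mouse at a time, genes called ran from 2 to 61 and from 1 to 182 for the diet in TSP1F/F and TSP1ΔPf4 mice, from 22 to 84 between AMLN-fed genotypes and from 0 to 24 for the difference in diet effect. The diet effect ran from 2.59 to 3.17 (Col3a1), 2.29 to 2.93 (Col1a2) and 2.92 to 4.88 (Col1a1) in TSP1F/F mice, and from 1.09 to 1.90 (Col1a2), 0.90 to 1.35 (Col3a1) and 2.16 to 3.37 (Col1a1) in TSP1ΔPf4 mice. Between AMLN-fed genotypes it ran from -0.71 to 0.41 (Col1a1), -1.97 to -1.45 (Col3a1) and -0.66 to 0.19 (Col1a2), and on LF from -0.0397 to 2.01 (Col1a1) and -0.20 to 0.30 (Col3a1). The difference in diet effect ran from -2.03 to -1.45 (Col3a1), -1.54 to -0.69 (Col1a2) and -2.09 to -0.0460 (Col1a1), with none called. Col1a1/Col1a2 by diet in TSP1F/F mice ran from 0.67 to 2.45. The reversing ratios ran from -0.50 to 0.15 (Col1a2/Col3a1 by diet in TSP1F/F mice), -0.55 to 0.34 and -0.59 to 1.19 (Col1a1/Col1a2 between genotypes on AMLN and LF). Of the alternatives that left out no single mouse, 170 values kept direction and side of the threshold or, for counts of genes called, stayed near the main count. Beside them, 12 reversed, 16 gained a call, 5 lost a call and 27 counts of genes called moved.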
